A study of Rattus norvegicus with 8 samples.

Results

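Mediator and Integrator are large protein complexes that act on RNA polymerase II, and their subunit genes were followed in perfused rat liver. The members were taken by symbol: genes whose single platform-annotation symbol is Med or Ints with a number (Med with an optional final letter), plus Ccnc, Cdk8 and Cdk19. This found 33 genes among the 14506 measured, 26 of Mediator and 7 of Integrator. The rule would have chosen between probe sets of a gene by the mean over the 8 arrays. Each of the 33 genes had 1 probe set, so no measured value decided between probe sets. The gene family itself was chosen with earlier results of these data known. Of 48 subunit genes listed from general knowledge, Med7, Med9, Med12, Med13l, Med18, Med25, Med26, Ints1, Ints3, Ints6, Ints7, Ints8, Ints9, Ints14 and Ints15 were not analysed here.

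Livers of male Wistar rats aged 6 to 10 weeks were isolated and perfused with Krebs-Henseleit buffer, a bicarbonate-buffered salt solution, and 1-colour Affymetrix arrays were hybridised with their total RNA. The 4 normoosmotic samples had received buffer of 305 mosm/L and the 4 hypoosmotic samples buffer of 225 mosm/L, a difference that draws water into cells. All 8 samples are labelled 120 min, so no time course and no unperfused liver enters the comparison. Whether each sample is a different rat is not stated in the labels, and p-values then refer only to the spread among these 8 samples, part of which may be technical. The values are the deposited log2 expression values. Changes are hypoosmotic minus normoosmotic log2 units, so that a change of −1 is a halving of the signal.

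Mediator bridges transcription factors bound at enhancers and promoters to RNA polymerase II. Its head and middle modules contact the polymerase, the tail receives many of the activators, Med14 is the backbone that joins the modules, and a kinase module of Cdk8 or Cdk19, cyclin C, Med12 and Med13 binds reversibly and modulates the rest. In liver, nuclear receptors call on Mediator through Med1, and sterol regulatory factors do so through Med15. Integrator cuts nascent RNA, among it the small nuclear RNAs of the spliceosome, and ends transcription at paused polymerases with the help of a bound protein phosphatase.

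Hepatocyte markers were bright in every array, with means over 7 markers between 12.07 and 12.26, and T and B lymphocyte markers were dim, between 2.65 and 2.80. Of the 40 measured markers of 8 liver cell classes 0 were called by limma, 5 had an unadjusted p under 0.05, and the mean level of each list overlapped between the groups. Of these 5, 3 were lower, the 2 measured erythroid markers Alas2 and Hbb and 1 of stellate cells, and 2 were higher, 1 each of cholangiocytes and lymphocytes. Over all genes, 1.98% were called, 7.97% had an unadjusted p under 0.05 in the lower direction and 6.6% in the higher one. The erythroid list had a median change of −0.54, with means of 4.74 to 5.82 in normoosmotic and 4.58 to 5.28 in hypoosmotic arrays, and its part in the changes of the subunits was not tested. In whole liver, fewer cells of a type and less RNA per cell cannot be told apart.

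Across the 33 subunits, 4 fell and 0 rose at an adjusted p under 0.05 (limma, Benjamini-Hochberg over all 14506 genes). The 4 were Med13, Med1, Med15 and Med14, which lie in the kinase, middle and tail modules and the scaffold of Mediator, 1 in each. Over all genes, 1.98% were called, 1.42% lower and 0.558% higher. All 7 Integrator genes and all 10 measured head genes were among the 29 that did not pass. Med13 and Med1 were the 2 subunits called when normoosmotic replicate 3 or hypoosmotic replicate 2 or 3 was left out, and 3 were called when normoosmotic replicate 1 or hypoosmotic replicate 1 was. The median change was −0.01 over the Mediator genes and −0.20 over the Integrator genes, beside 0.04 over all genes. Dropping normoosmotic replicate 3 put the Integrator median at −0.12, while dropping hypoosmotic replicate 1 or 4 put it at −0.075 or −0.30. A clock score as a covariate gave −0.07. Without adjustment, 10 subunits had a p under 0.05 in the lower direction and 0 in the higher one, against 7.97% and 6.6% of all genes. Of these 10, 7 are Mediator genes, 2 of them in the head, and 3 are Integrator genes.

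**Figure D1:**
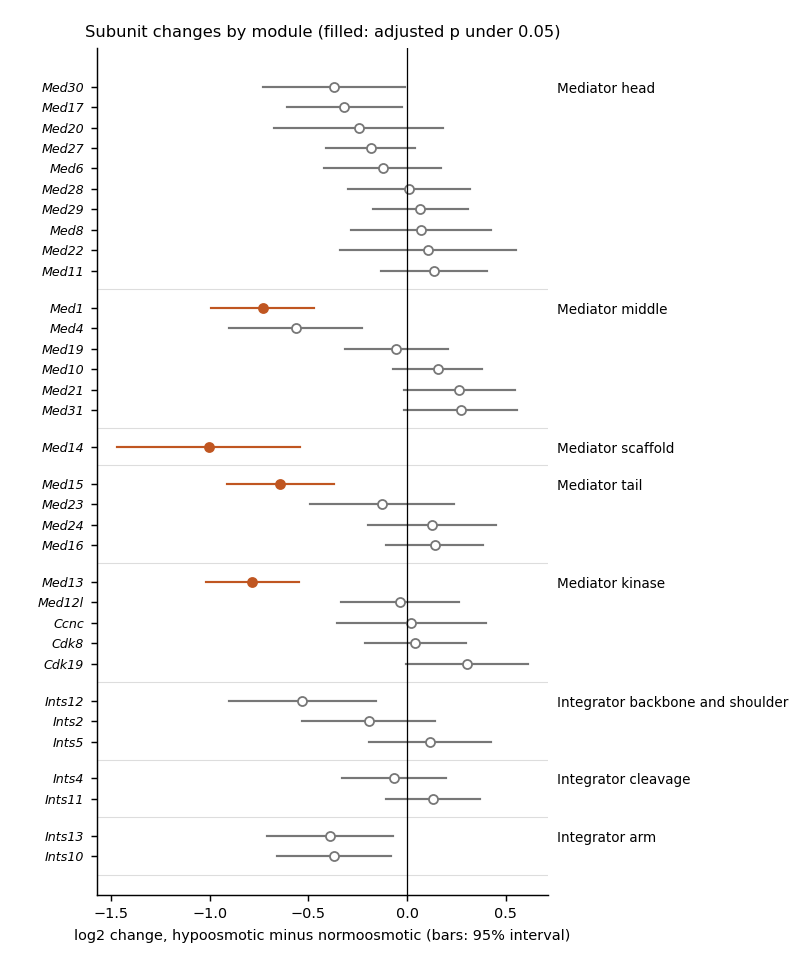
Log2 change of each subunit (x axis, hypoosmotic minus normoosmotic) with its 95% interval from limma, by module; filled orange points have an adjusted p under 0.05. Med1, Med14, Med15 and Med13 sit at −0.73, −1.01, −0.64 and −0.79, while the remaining members of their modules scatter around 0 except Med4, at −0.57.

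Med13 is the large subunit that tethers the kinase module to the rest of Mediator. Its log2 values were 8.44, 8.20, 8.38 and 8.36 in normoosmotic replicates 1 to 4 and 7.70, 7.43, 7.55 and 7.56 in hypoosmotic ones. The groups were separated by 0.50 log2 units, several times the SD within either group (0.10 and 0.11, n = 4 each). Med13 fell by 0.79 with a standard error of 0.11 (95% interval −1.02 to −0.55; limma, adjusted p = 0.00408), which is 1.72-fold lower. The call held in all 18 alternative fits, with adjusted p-values up to 0.0208.

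The other 4 measured genes of the kinase module did not pass the test. The kinase gene Cdk8 read 8.23, 8.04, 8.28 and 7.92 in normoosmotic samples and 8.07, 8.11, 8.14 and 8.32 in hypoosmotic samples, so the groups overlapped throughout (change 0.04, 95% interval −0.21 to 0.30). Cdk19, the paralogue of Cdk8, had the highest change of all 33 subunits, 0.30 (−0.01 to 0.61; adjusted p = 0.356). Ccnc, which encodes their cyclin C, had a change of 0.02 (−0.36 to 0.40), and Med12l, a paralogue of the kinase activator Med12, one of −0.04 (−0.34 to 0.26). The change of Med13 was lower than that of Cdk8 by 0.83 ± 0.11 (SE), of Cdk19 by 1.09 ± 0.15, of Ccnc by 0.81 ± 0.23 and of Med12l by 0.75 ± 0.19. These differences, and the like ones for Med1 and Med15, are a description with no p-value, since the first gene of each pair was taken because it was called.

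Promoter sequences from RefSeq (build GRCr8) are shown for Med13, for Cdk8 of the same module, for Ints2 and for Med14. They set 2 genes that were called lower beside 2 that were not called. No promoter window was found for Med1 and Med15, the other called subunits. Ints2 is the direct neighbour of Med13 among protein-coding genes. Each line gives the 200 bases before the annotated start, 5′ to 3′ on the gene's strand. Capitals mark every match to a searched motif, here GGGCGG on either strand (the letters of a GC box, bound by Sp1-type factors) and, in Med14, also GAANNTTC (the core letters of a heat shock element).
Med13, chr10:71673902-71674101, minus strand: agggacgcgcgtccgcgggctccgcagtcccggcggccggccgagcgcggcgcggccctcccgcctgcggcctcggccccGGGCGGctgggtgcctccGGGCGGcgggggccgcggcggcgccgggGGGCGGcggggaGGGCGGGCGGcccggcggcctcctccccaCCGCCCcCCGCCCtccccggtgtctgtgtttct
Cdk8, chr12:13917993-13918192, minus strand: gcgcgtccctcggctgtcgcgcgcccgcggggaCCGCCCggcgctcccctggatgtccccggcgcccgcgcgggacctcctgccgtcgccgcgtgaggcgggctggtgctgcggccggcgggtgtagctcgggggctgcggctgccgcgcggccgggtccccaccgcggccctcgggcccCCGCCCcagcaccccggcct
Ints2, chr10:71576454-71576653, minus strand: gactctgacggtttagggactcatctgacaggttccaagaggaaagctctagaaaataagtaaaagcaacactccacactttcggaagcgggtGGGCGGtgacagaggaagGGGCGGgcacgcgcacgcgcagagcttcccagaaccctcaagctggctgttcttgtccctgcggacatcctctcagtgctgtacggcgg
Med14, chrX:12709521-12709720, plus strand: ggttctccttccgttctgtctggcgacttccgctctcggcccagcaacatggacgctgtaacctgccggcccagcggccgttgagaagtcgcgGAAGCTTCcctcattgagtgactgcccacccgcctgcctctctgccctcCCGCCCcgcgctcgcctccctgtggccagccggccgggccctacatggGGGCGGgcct

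The Med13 stretch holds 7 matches to GGGCGG, of which the neighbouring ones at 62 and 58 bases before the start overlap, and the other 3 stretches hold 2 each. The match to GAANNTTC in Med14 begins 107 bases before the start. Windows of 300 bases (250 before and 50 after a start) were found for 28 of the 33 subunits, 30 windows in all, of which Med12l and Ints13 have 2 each. GGGCGG was present in 21 of them (70.0%), against 33.1% of all 33469 windows, and CCGGAAG, the letters of an Ets factor site, in 8 (26.7%), against 8.7%. CCAAT was present in 15 of the 30 windows against 37.5% of all, TATAAA in 3.3% against 14.2%, CACGTG in 10.0% against 6.4%, TGACGTCA in 3.3% against 1.8% and GAANNTTC in 10.0% against 8.6%. TGGAAA, core letters of the site of the osmosensing factor Nfat5, was present in 16.7% against 22.7%, and the palindromic site of Nrf1 in 0 of 30 windows against 0.9%. All motifs were read on both strands, and matches of different motifs may overlap. The windows of the subunits had a median GC content of 58.3%, beside 51.7% over all windows, and GC-rich letters are found more often in GC-rich windows. A match is a string of letters and not a measured site.

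Med1 is the middle-module subunit through which thyroid hormone receptors, peroxisome proliferator-activated receptors and other nuclear receptors bind Mediator. It read 7.33, 7.19, 7.29 and 7.27 in normoosmotic replicates 1 to 4 and 6.55, 6.34, 6.44 and 6.82 in hypoosmotic ones. Every hypoosmotic value lay below every normoosmotic one, with hypoosmotic replicate 4 the nearest. Med1 fell by 0.73 ± 0.12 (SE; limma, adjusted p = 0.00936), which is 1.66-fold lower, and kept its call in all 18 alternative fits, with adjusted p-values up to 0.0450.

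Within the middle module Med4, a subunit of its core, came closest to Med1. It read 4.54, 4.40, 4.01 and 4.32 in normoosmotic samples and 3.5, 3.52, 4.07 and 3.92 in hypoosmotic samples, and hypoosmotic replicate 3 exceeded normoosmotic replicate 3. Its change of −0.57 (95% interval −0.90 to −0.23) had an adjusted p of 0.0863 and passed in 0 of 18 alternative fits, with adjusted p-values from 0.0620 to 0.249. The changes of Med1 and Med4 differed by −0.17 ± 0.19 (SE). Against Med10, Med19, Med21 and Med31, small subunits of the same module, the change of Med1 was lower by 0.89, 0.68, 1.0 and 1.01. Med31 and Med21 had changes of 0.27 (−0.01 to 0.56) and 0.27 (−0.02 to 0.55), Med10 one of 0.16 and Med19 one of −0.06, and none of these passed.

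Med15 belongs to the tail, where it binds sterol regulatory element-binding proteins and Smad factors. It read 6.47, 6.59, 6.72 and 6.55 in normoosmotic replicates 1 to 4 and 6.07, 5.64, 5.94 and 6.11 in hypoosmotic ones. The groups did not overlap, and hypoosmotic replicate 2 was the lowest array. Med15 fell by 0.64 ± 0.13 (SE; limma, adjusted p = 0.0213), which is 1.56-fold lower. It kept its call in 14 of 18 alternative fits. Leaving out normoosmotic replicate 3 raised the adjusted p to 0.0768, hypoosmotic replicate 2 to 0.0719 and hypoosmotic replicate 3 to 0.0546, and a clock score as a covariate gave 0.0662 with a change of −0.62.

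The other tail genes lay on both sides of 0. Med16, a subunit of the outer tail, had a change of 0.14 (95% interval −0.11 to 0.39) and Med24, its neighbour in the tail, one of 0.13 (−0.20 to 0.45). Med23, the subunit that binds the growth factor-regulated Elk1, had a change of −0.13 (−0.49 to 0.24). The change of Med15 was lower than that of Med16 by 0.78 ± 0.16 (SE) and than that of Med24 by 0.77 ± 0.17. From Med23 it differed by −0.52 ± 0.23.

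Med14 is the scaffold that runs through head, middle and tail. It had the lowest change of the 33 subunits, but also the lowest signal: its mean over the 8 arrays, 3.02, lay at the 21.9th percentile of all genes, where a value can be close to background. It read 3.85, 2.91, 4.08 and 3.26 in normoosmotic replicates 1 to 4 and 2.76, 2.40, 2.56 and 2.36 in hypoosmotic ones. The groups stayed apart by 0.15, less than the SD of the normoosmotic group (0.54, n = 4). Med14 fell by 1.01 ± 0.21 (SE; limma, adjusted p = 0.0314). Of its 4 hypoosmotic values 3 lay below the means of the lymphocyte markers (2.65 to 2.80), so no fold is given.

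The call of Med14 held in 10 of 17 alternative fits, and the fit without the dimmest 25% of genes did not contain it. It was lost when normoosmotic replicate 1 (adjusted p = 0.0972) or 3 (0.0823) was left out, and when any hypoosmotic array was, namely replicate 1 (0.0527), 2 (0.109), 3 (0.0758) or 4 (0.06). Adding the clock score as a covariate gave a change of −0.78 ± 0.17 (SE) and an adjusted p of 0.0548. That score averages the log2 values of the clock activators Bmal1 and Npas2, subtracts the average of the output genes Dbp and Per3, and follows the phase of the circadian clock. It was −2.81, 1.26, −3.38 and 1.49 in normoosmotic replicates 1 to 4, so that the pair of arrays with the higher Med14 values had the low scores. In the hypoosmotic replicates the score was 1.38, 1.09, −0.52 and −0.06. The part of the clock phase in the result was not tested beyond that fit. With the score as a covariate, Med13 and Med1 were the 2 subunits called.

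**Figure D2:**
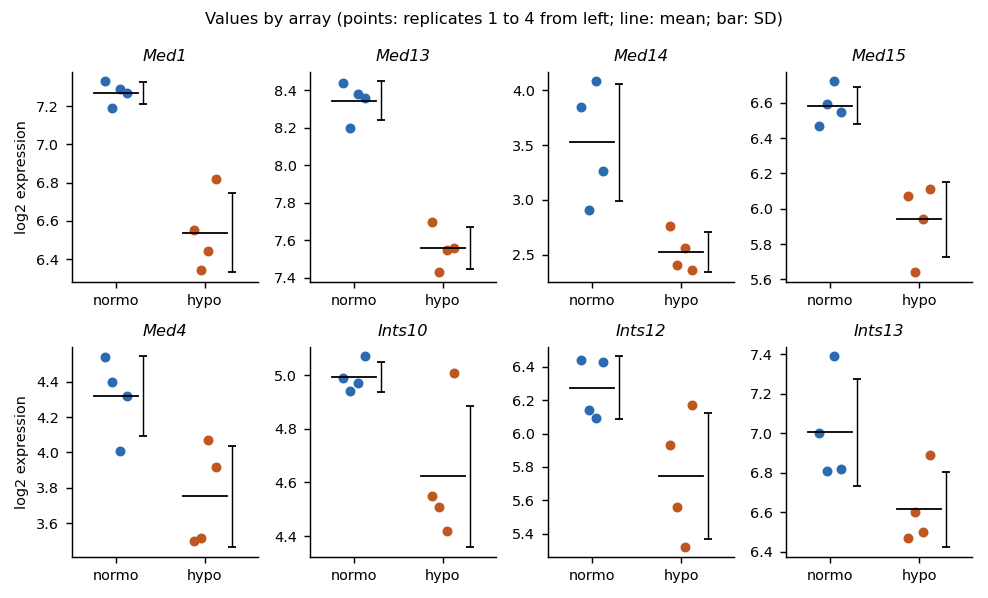
Log2 expression (y axis, own range in each panel) of 8 subunits in the 4 normoosmotic (blue) and 4 hypoosmotic (orange) arrays, with replicates 1 to 4 from left to right, the mean as a line and the SD as a bar. In the upper row the groups do not overlap, with the widest gap for Med13; in the lower row at least 1 hypoosmotic array reaches the normoosmotic range.

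The head module, which holds the polymerase against the promoter, had 10 measured genes, 5 with a change below 0 and 5 above, and a median change of −0.06. The changes ran from −0.37 for Med30 (95% interval −0.73 to −0.01; adjusted p = 0.328) to 0.14 for Med11 (−0.13 to 0.41). Med17, a core subunit of the head, had a change of −0.32 (−0.61 to −0.02; adjusted p = 0.298), and its normoosmotic values (4.93 to 5.34) overlapped its hypoosmotic ones (4.59 to 5.05). Med27 read 4.52, 4.51, 4.68 and 4.69 in normoosmotic samples and 4.44, 4.38, 4.35 and 4.49 in hypoosmotic ones. Its groups did not overlap, yet the gap was 0.02 and the change of −0.19 had an adjusted p of 0.467. Med28, Med29, Med8 and Med22 had changes between 0.01 and 0.11, and Med6 and Med20 had changes of −0.12 and −0.25. Together with Med1, Med13, Med14 and Med15, Med27 made 5 subunits whose hypoosmotic values all lay below the normoosmotic ones, where 5.05% of all genes were apart in this way. The reverse order was seen in 0 subunits, against 3.21% of all genes.

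Of the 7 Integrator genes, 5 had a change below 0 and 2 above, and none passed the test. Ints12, a small subunit bound to the large Ints1, had the lowest change. It read 6.44, 6.14, 6.09 and 6.43 in normoosmotic replicates and 5.93, 5.56, 5.32 and 6.17 in hypoosmotic ones, where replicate 4 lay within the normoosmotic range. The change was −0.53 (95% interval −0.90 to −0.16; adjusted p = 0.146).

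The arm of Integrator, whose subunits take part in binding other factors, was represented by Ints10 and Ints13. Ints10 read 4.99, 4.94, 4.97 and 5.07 in normoosmotic samples and 4.55, 4.51, 4.42 and 5.01 in hypoosmotic samples. The first 3 hypoosmotic arrays lay below all normoosmotic ones, while replicate 4 did not. The change of Ints10 was −0.37 (−0.66 to −0.08; adjusted p = 0.197), and without hypoosmotic replicate 4 it was −0.50 with an adjusted p of 0.0401. Ints13 read 7.0, 6.81, 7.39 and 6.82 against 6.47, 6.6, 6.50 and 6.89, a change of −0.39 (−0.71 to −0.07; adjusted p = 0.229), and again hypoosmotic replicate 4 was the array that overlapped.

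The cleavage module of Integrator had no change of that size. Ints11, the endonuclease, had a change of 0.13 (95% interval −0.10 to 0.37) and Ints4, which holds the nuclease pair, one of −0.07 (−0.33 to 0.20). Among the backbone and shoulder genes, Ints5 had a change of 0.12 (−0.19 to 0.43) and Ints2 one of −0.20 (−0.53 to 0.14). Ints2 read 4.10, 3.98, 4.24 and 3.78 against 3.47, 3.69, 4.02 and 4.14, overlapping, whereas its neighbour Med13 did not overlap.

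**Figure D3:**
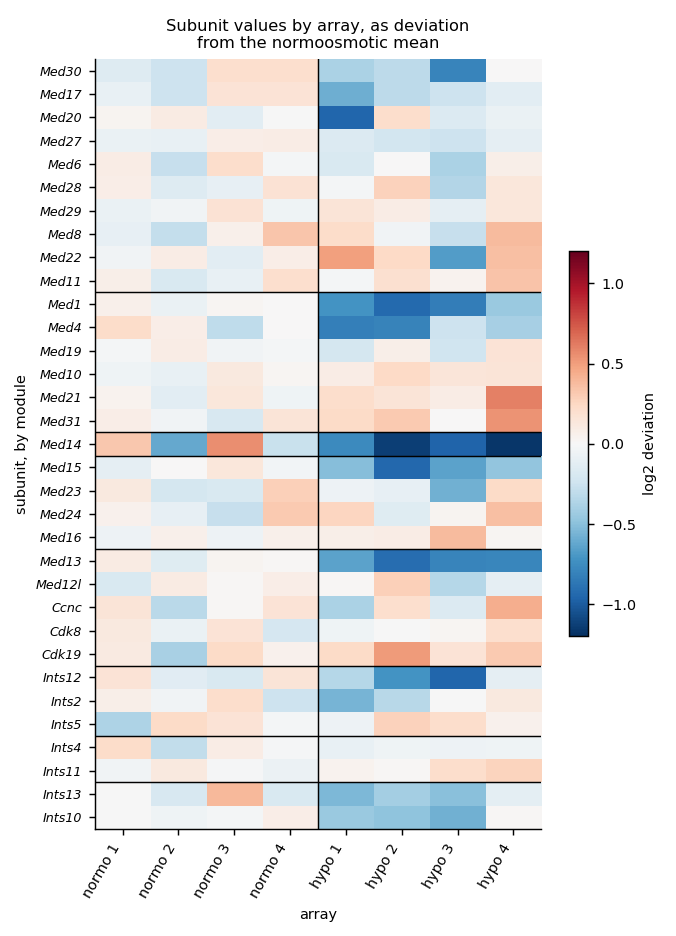
Deviation of each subunit in each array from its normoosmotic mean (colour, log2 units; blue lower, red higher), with rows grouped by module and a line between the groups. Med1, Med14, Med15 and Med13 are blue in all 4 hypoosmotic arrays, and many other rows are redder in hypoosmotic replicate 4 than in replicate 3.

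The arrays of a group differed in the same direction for many subunits. Hypoosmotic replicate 4 was the highest of its group for 20 of the 33 subunits (60.6%), against 28.4% of all genes, and hypoosmotic replicate 3 was the lowest for 15 (45.5%), against 27.9%. Among normoosmotic arrays, replicate 2 was the lowest for 18 subunits (54.5%), against 28.1% of all genes. The subunits of one array share its RNA, so these counts describe arrays.

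By module, the median deviation from the normoosmotic mean overlapped between the groups for the head, middle, tail and kinase modules. The median changes over subunits were −0.06 for the head, 0.05 for the middle, 0.00 for the tail and 0.02 for the kinase module. The Integrator median was −0.35, −0.34, −0.06 and 0.02 in hypoosmotic replicates 1 to 4 and between −0.05 and 0.09 in normoosmotic ones, so hypoosmotic replicate 4 lay inside the normoosmotic range. The median of all genes stayed between −0.01 and 0.05 in every array. A module median hides single large falls: each of the middle, tail and kinase modules held 1 called gene beside medians of 0.00 to 0.05. No difference between the modules or complexes was tested.

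**Figure D4:**
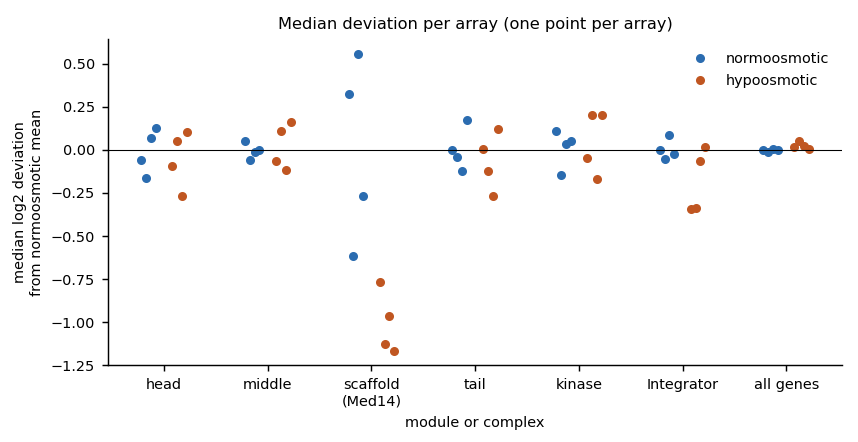
Median over the genes of a module of the deviation from the normoosmotic mean (y axis, log2 units), 1 point per array, with normoosmotic arrays in blue and hypoosmotic arrays in orange. The scaffold is Med14 alone and is the 1 category whose colours are apart below 0. The median of all genes lies between −0.01 and 0.007 in normoosmotic arrays and, slightly higher, between 0.008 and 0.053 in hypoosmotic arrays.

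Genes that work beside the complexes were read from lists chosen for their function, with earlier results of these data known. Of 10 measured RNA polymerase II subunits 0 were called by limma and 0 had an unadjusted p under 0.05, and their changes lay between −0.17 for Polr2b and 0.15 for Polr2e. Of 26 general transcription factors and TFIID subunits, which assemble with the polymerase at promoters, 0 fell and 1 rose: Taf7, by 0.64 ± 0.15 (SE; adjusted p = 0.0454), with 8 of 18 alternative fits keeping that call. Its adjusted p was 0.08 after subtraction of array medians, 0.072, 0.105 and 0.138 when normoosmotic replicates 1, 2 and 3 were left out in turn, and 0.0697, 0.149 and 0.075 for hypoosmotic replicates 1, 2 and 4. Without adjustment, 4 genes of the list had a p under 0.05 in the lower direction and 2 in the higher one. Over all genes, 7.97% had such a p in the lower and 6.6% in the higher direction. The shares of all genes called were 1.42% lower and 0.558% higher. The lowest change in that list was −0.39 for Taf5. The median change was −0.01 over the polymerase list and 0.00 over the TFIID list.

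Among 25 pausing and elongation factors 3 fell and 0 rose, where 1.42% of all genes fell and 0.558% rose, with a median change of −0.21. Hexim1, the inhibitor of the elongation kinase P-TEFb, read 6.21, 5.75, 6.26 and 5.95 in normoosmotic samples and 5.21, 4.46, 4.85 and 5.43 in hypoosmotic ones, and fell by 1.06 ± 0.19 (SE; adjusted p = 0.0158). Cdk9, the kinase of P-TEFb, fell by 0.72 ± 0.13 (adjusted p = 0.0168), and Rtf1, an elongation factor that works with the Paf1 complex, by 0.57 ± 0.12 (adjusted p = 0.0243). The adjusted p of Hexim1 was 0.0521 without normoosmotic replicate 1 and 0.0533 without normoosmotic replicate 3. Cdk9 had 0.0564 when normoosmotic replicate 3 was removed and 0.0695 when hypoosmotic replicate 2 was. Rtf1 kept its call in 12 of 18 alternative fits, and was not called without normoosmotic replicates 1, 3 and 4 (0.0584, 0.0849 and 0.0559) or hypoosmotic replicates 1 and 2 (0.0598 and 0.0901). With the clock covariate the adjusted p-values of the 3 genes were 0.0514, 0.0514 and 0.0795, and their changes were −0.94, −0.71 and −0.55. The highest change in the list was 0.11 for Aff1, and unadjusted p-values under 0.05 numbered 8 in the lower and 0 in the higher direction, against 7.97% and 6.6% of all genes.

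Among 16 cleavage and polyadenylation factors, the machinery to which the Integrator nuclease is related, 1 fell and 0 rose. Of all genes, 1.42% fell and 0.558% rose. The median change was −0.24 over this list beside 0.04 over all genes. Cstf3, a subunit of the cleavage stimulation factor, read 3.98, 3.74, 4.2 and 3.96 against 3.25, 2.99, 3.36 and 3.15. It fell by 0.78 ± 0.13 (SE, with a limma adjusted p of 0.00928) and kept its call in all 18 alternative fits. The mean of Cstf3 over the 8 arrays, 3.58, lay at the 31.7th percentile of all genes, where a value can be close to background. Cpsf3, the nuclease of that machinery and a relative of Ints11, had a change of 0.24 (adjusted p = 0.50), and the highest was 0.26 for Cpsf1. Without adjustment 8 of the 16 had a p under 0.05, all lower, a direction in which 7.97% of all genes had such a p.

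Of 11 Integrator partners and subunits of the small nuclear RNA activating complex 0 were called by limma. Without adjustment, 3 had a p under 0.05, all lower, against 7.97% of all genes lower and 6.6% higher. The changes ran from −0.51 for Ice1 to 0.31 for Snapc1. The phosphatase subunits that join Integrator had changes of −0.10 (Ppp2ca) and 0.01 (Ppp2r1a). Of 7 measured genes of cohesin and its loader, a ring complex that meets Mediator at enhancers, 1 fell and 0 rose. That was Smc3, by 0.67 ± 0.12 (SE; adjusted p = 0.0179), and all 7 changes were below 0, the smallest being −0.10 for Stag1. Over all genes 1.42% fell, and 5999 of the 14506 changes were below 0. Smc3 kept its call in 13 of 18 alternative fits, and its adjusted p was 0.0563 or 0.0518 when normoosmotic replicate 1 or 3 was left out, 0.0558 or 0.0511 when hypoosmotic replicate 2 or 3 was, and 0.0583, with a change of −0.65, under the clock covariate.

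Of 18 liver transcription factors known to contact Mediator, 2 fell and 0 rose, where 1.42% of all genes fell and 0.558% rose. Without adjustment, 4 had a p under 0.05 in the lower and 2 in the higher direction. Over all genes these shares were 7.97% and 6.6%. Changes above 0 numbered 12 in this list, and changes below 0 numbered 6. Hsf1, the heat shock factor, fell by 0.69 ± 0.12 (SE; adjusted p = 0.0102) and kept its call in all 18 alternative fits. Thrb, the thyroid hormone receptor that binds Med1, read 7.16, 7.15, 7.17 and 7.23 against 6.80, 6.71, 6.69 and 6.66 and fell by 0.46 ± 0.10 (adjusted p = 0.0326). Thrb kept its call in 8 of 18 alternative fits and was no longer called when any single array was removed (adjusted p at most 0.0981). The highest change was 0.51 for Esr1. Hnf4a, Ppara and Rxra, nuclear receptors that act through Med1 in hepatocytes, had changes of 0.24, 0.07 and 0.18 and were not called. The median change over this list was 0.10.

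**Figure D5:**
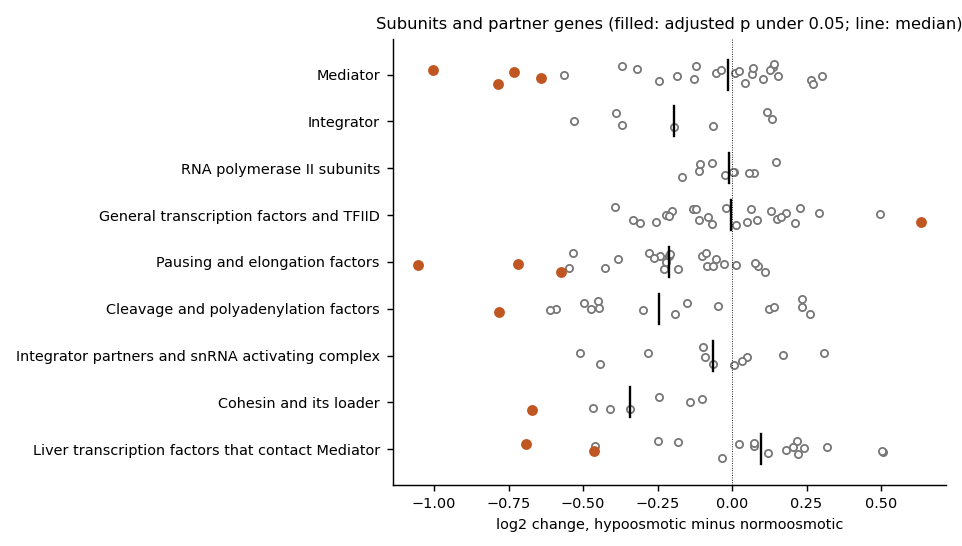
Log2 changes (x axis, hypoosmotic minus normoosmotic) of the subunits of both complexes and of the genes of 7 partner lists (rows, points spread vertically for legibility), with filled orange points for an adjusted p under 0.05 and a line at each median. The 4 called Mediator genes lie at or below −0.64, and the 1 filled point above 0 is Taf7.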

How the data were processed

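The deposited table gave log2 expression values, with 2 decimals, of 27596 probe sets on 8 arrays; the authors' values were used unchanged. Their range pointed to the log2 scale (0.88 to 13.26). Transcriptome Analysis Console 4.0 is named per the submitters' processing notes. Summarisation, background step, normalization and genome build: not given in the sources used here. Probe sets with 1 symbol (15310) were named through the platform annotation and updated by gene ID, giving 14506 genes, with the probe set of highest mean where a gene had several.

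The comparison used limma 3.58.1 in R 4.3.3 (lmFit and eBayes, group as the only term, two-sided), checked on simulated data. No gene was filtered. Precision is limited by 4 arrays per group. Array medians lay between 4.05 and 4.16.

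Named were subunits called, the extremes of each module, paralogues, Ccnc, Med1, Ints11 and subunits with an array apart. Partner genes were named if called or extreme. Hnf4a, Ppara, Rxra, Thra, Ppp2ca, Ppp2r1a, Cpsf3 and further subunits were added after values were seen. The members and lists were chosen with earlier results of these data known. Med27 to Med30 were counted in the head; structural accounts differ on this.

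Alternatives, 18 in all for a gene, were other normalizations, priors, weights, filters, probe set rules, a clock covariate and leaving out each array. Each subunit had a single probe set, so the probe set rules left its values as they were and altered only the rest of the fit. Counts were also read at 2 other thresholds.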

Additional observations from a re-analysis of the deposited data

Results flagged for a closer look

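Of 82 groups of 4 arrays checked (33 subunits and 8 called partner genes), 2 held an array that stood far from the other 3 by Dixon's test at the 95% level. Chance alone gives about 1 in 20 such groups. Med19 read 5.06 in normoosmotic replicate 2 and between 4.93 and 4.95 in the other normoosmotic arrays. Med29 read 6.35 in normoosmotic replicate 3 and between 6.10 and 6.14 in the others. Neither gene was called.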

How the results depend on the processing

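Med13, Med1, Cstf3 and Hsf1 kept direction and call in all 18 alternatives. Leaving out 1 array gave 81 to 365 called genes against 287, 2 to 4 subunits called lower against 4, 0 higher, 2 to 11 partner genes called lower against 7 and 0 to 2 higher against 1. With the clock score as a covariate, 92 genes, 2 subunits and 2 partner genes lower and 0 partner genes higher were called. The 1 partner gene called higher became 0 after subtraction of array medians, with the replicate block and over all probe sets. The medians of the head, middle, tail and kinase modules and of Integrator moved by less than the SD between arrays in every alternative (the Integrator median, of −0.20, ran from −0.298 to −0.075 without 1 array), also with Med27 to Med30 counted in the tail. Same-numbered arrays of the groups correlated in their deviations from the group means at 0.05, 0.03, 0.08 and 0.17, and not every array correlated best with its own number, so the numbers were not taken as pairs. With the replicate block, 256 genes and the same 4 subunits were called, and of the called genes named here Taf7 (0.0608) and Thrb (0.0632) lost the call. At an adjusted p under 0.10, 601 genes, 15 partner genes lower and 2 higher were called. Among the subunits, Med4 (0.0863) then joined the same 4. Under 0.01, 68 genes, 2 subunits, 1 partner gene lower and 0 higher were called. Some uncalled values near 0 changed sign. After subtraction of array medians Ccnc was at −0.02 and Med28 at −0.032, and Med12l was at 0.008 with array weights. With the clock covariate Ints4 was at 0.013, Med22 at −0.004 and Med28 at −0.027. Without 1 array the changes ranged from −0.114 to 0.156 for Ccnc, −0.079 to 0.131 for Med28, −0.023 to 0.097 for Cdk8, −0.033 to 0.187 for Med8, −0.023 to 0.363 for Med22, −0.162 to 0.008 for Ints4, −0.007 to 0.193 for Ints5, −0.145 to 0.065 for Med12l, −0.129 to 0.008 for Med19 and −0.245 to 0.022 for Med23. The cause of these shifts was not tested.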

Other observations

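Spread within a group differed between subunits. Med22, a head subunit, had an SD of 0.10 in normoosmotic and 0.53 in hypoosmotic samples (n = 4 each), with hypoosmotic values of 4.29, 4.04, 3.13 and 4.16. Med20, its fellow head subunit, had SDs of 0.09 and 0.50, with hypoosmotic values of 3.92, 5.09, 4.71 and 4.80. The opposite was seen for Ints4, with values of 6.65, 6.14, 6.52 and 6.42 in normoosmotic samples and between 6.34 and 6.38 in hypoosmotic ones. Neither the spreads nor their differences were tested, and these 3 genes were chosen after their values were seen.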
